A study of Equus caballus with 24 samples.

Results

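The genes described here are 10 chaperones and folding factors of the endoplasmic reticulum (ER), the compartment in which secreted and membrane proteins are folded. They are HSPA5, HSP90B1, HYOU1, DNAJB11, SDF2L1, CALR, PDIA4, PDIA6, MANF and CRELD2, and they were looked up by gene name among the 24232 genes of the deposited count table and the 24248 genes of the deposited RPKM table. All 10 were found. HSP90B1 stood under its older name GRP94, and the other 9 under their current names. They were chosen on the measured values of these same libraries, since the list was drawn up with their counts, RPKM levels and fold changes between groups known, so the levels and fold changes of the 10 genes are given as a description, without p-values. Counts of the 10 genes past the threshold of the study are likewise a description, with all libraries or with some left out.

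The libraries came from total RNA, depleted of ribosomal RNA, of 2 horse breeds that differ in height, the Debao pony (DP) and the Mongolian horse (MH), with the question of which genes differ between them in tissues related to growth. Pituitaries and the ends of long bones (epiphysis) were taken at a slaughterhouse from female animals at a juvenile and an adult stage, which gave 24 libraries in 8 groups of 3. The pituitary groups are DPPJ and DPPA (juvenile and adult DP) and MHPJ and MHPA (juvenile and adult MH), and the long bone groups are DPLBJ, DPLBA, MHLBJ and MHLBA in the same way. Each library is a separate tissue sample, and the labels do not say which pituitary and which bone came from 1 animal. The libraries held 11433209 to 27007342 reads on genes.

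Proteins that enter the ER are held and folded by HSPA5 (BiP), an HSP70-type chaperone, and HSP90B1, an HSP90-type chaperone, with helper proteins around them. Calreticulin and its partners fold proteins that carry sugar chains, and protein disulfide isomerases form the bonds between cysteines. When unfolded proteins build up, the sensors ERN1 (IRE1), EIF2AK3 (PERK) and ATF6 start the unfolded protein response (UPR), which raises the transcription of these chaperones, in part through the transcription factor XBP1. Cells that secrete much protein, such as hormone cells of the anterior pituitary, plasma cells and bone-forming cells, are known for a large ER.

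Several libraries stood apart in their tissue markers. Of the 8 comparisons below, 6 include pituitary libraries with few hormone transcripts or bone libraries with pancreas or liver transcripts. The other 2, DPLBJ against MHLBJ and DPLBJ against DPLBA, were uneven in cartilage and marrow markers. The 3 DPLBJ libraries held 44.0, 1275 and 7746 RPKM of cartilage markers and 0.54, 788 and 932 RPKM of red cell precursor markers. Markers of the anterior pituitary, 12 hormone and secretory granule genes, summed to between 42421 and 61184 RPKM in DPPJ, but only to 646, 113 and 1038 RPKM in the 3 MHPJ libraries. In the adults they summed to 2772 RPKM in DPPA replicate 1 and 64.0 RPKM in MHPA replicate 1, against 31770 to 49449 RPKM in the other 4 adult libraries. POMC, the precursor of ACTH, had 0, 32 and 0 reads in MHPJ against 33277 to 129327 reads in DPPJ, and GH, growth hormone, had 0, 41 and 2 reads in MHPJ. The same 5 hormone-poor libraries held 5671 to 14725 RPKM of 11 neural lobe and glia markers, against 290 to 3634 RPKM in the other 7. They were not alike by single marker. MHPJ replicate 2 held 26.5 RPKM of GFAP and 1.86 RPKM of AQP4, below the 1393 and 259 RPKM of the hormone-rich DPPJ replicate 2. The other hormone-poor libraries held 892 to 3609 RPKM of GFAP. Of the 11 markers, 2 passed the threshold used below as lower in DPPJ than in MHPJ. In the long bone, MHLBA replicate 1 held 97930 RPKM of 9 pancreatic digestive enzyme genes such as PNLIP, where the other 11 bone libraries held 0.57 to 10.0 RPKM, and MHLBA replicate 2 held 4019 RPKM of 11 liver genes such as ALB, against 72.0 to 376 RPKM in the other 11. The pancreas and liver lists were chosen after these values were seen. MHPJ replicate 2 also stood apart, with 838 RPKM of striated muscle markers against 11.4 to 32.1 RPKM in the other pituitary libraries.

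Among the 10 genes, HSP90B1 was the most abundant in 23 of the 24 libraries, with 421 to 1922 RPKM in the pituitary and 432 to 972 RPKM in the long bone. CALR held rank 2 in 21 libraries and HSPA5 rank 3 in 17. SDF2L1, which works with HSPA5 and the J-domain protein DNAJB11, was the lowest in 23 libraries, with medians of 8.10 RPKM in the pituitary and 5.92 RPKM in the bone. The pituitary libraries spread more than the bone libraries for 9 of the 10 genes, SDF2L1 being the exception. The highest pituitary library held 9.69 times the HSPA5 level of the lowest, against 2.22 times in the bone, and for MANF the values were 7.29 times and 2.58 times. By group mean, MHPJ was the lowest of the 8 groups for 8 genes, the exceptions being SDF2L1 (lowest in MHLBJ) and HYOU1 (lowest in DPLBA). HSPA5 ran from 845 ± 513 RPKM in MHPA and 750.1 ± 114 RPKM in DPPJ down to 362 ± 211 RPKM in DPPA, and the other 5 groups lay between 142 and 196 RPKM. Of the neighbours in that order, only DPPJ and DPPA did not overlap. In the order of MANF, MHPJ (45.3 ± 1.69 RPKM) did not overlap with the group above it, MHLBJ (78.9 ± 5.65 RPKM), and for PDIA4 the same neighbours were apart, at 36.9 ± 11.9 RPKM and 82.4 ± 9.90 RPKM. RPKM scales the reads of a gene by its length and by the size of the library, so levels of different genes can be set side by side on it.

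**Figure D1:**
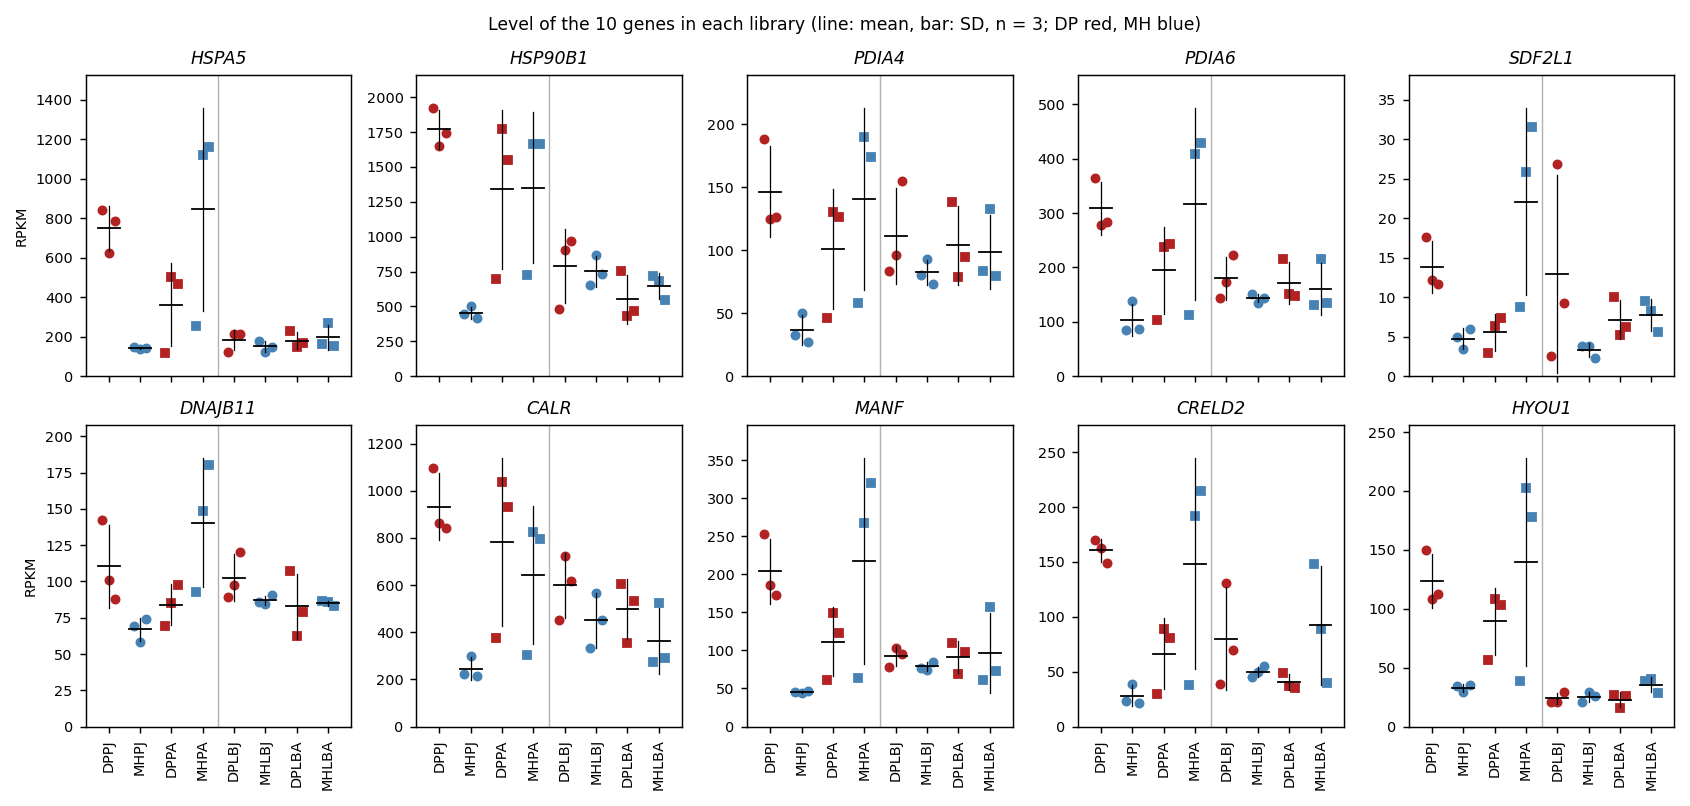
RPKM of each of the 10 genes in the 24 libraries, by group, with the pituitary left of the grey line and the long bone right of it. Circles are juvenile and squares adult libraries, DP red and MH blue, the horizontal line is the mean and the bar the SD of 3 libraries. All MHPJ libraries lie below all DPPJ libraries for every gene, and for most genes DPPA and MHPA each have 1 library far below the other 2.

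The juvenile pituitary showed the widest breed difference. HSPA5, the master chaperone of the ER, stood at 839.9, 622 and 788 RPKM in DPPJ and at 146, 136 and 144 RPKM in MHPJ. Every DPPJ library was thus far above every MHPJ library, and the edgeR log2 fold change (DP minus MH) was 2.21 ± 0.21 (SE), a fold of 4.63. HSP90B1 stood at 1922, 1647 and 1743 RPKM in DPPJ against 443, 504 and 421 RPKM in MHPJ, a log2 fold change of 1.76 ± 0.24. HYOU1 (GRP170), which exchanges the nucleotide bound to HSPA5, stood at 124 ± 23.0 RPKM (SD, n = 3) against 33.0 ± 3.28 RPKM, with a log2 fold change of 1.72 ± 0.20.

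DNAJB11 and SDF2L1, which also work with HSPA5, were higher in DPPJ too. DNAJB11 (ERdj3), which hands unfolded proteins to HSPA5, had the narrowest gap, with 142, 101 and 88.0 RPKM in DPPJ against 69.1, 58.0 and 73.8 RPKM in MHPJ. Its log2 fold change of 0.53 ± 0.24 was the only 1 of the 10 in this comparison under a fold of 2. SDF2L1 stood at 13.9 ± 3.31 RPKM in DPPJ and 4.78 ± 1.28 RPKM in MHPJ, a log2 fold change of 1.35 ± 0.33.

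The calreticulin and disulfide arms of the folding machinery were higher in DPPJ as well. CALR, a lectin-like chaperone that also binds calcium, stood at 1096, 862 and 841 RPKM in DPPJ and at 222, 301 and 215 RPKM in MHPJ, a log2 fold change of 1.72 ± 0.26. PDIA4 (ERp72) and PDIA6 (P5) are disulfide isomerases, and their log2 fold changes were 1.79 ± 0.33 and 1.37 ± 0.29. In MHPJ, replicate 2 was the highest library for both, with 50.3 RPKM of PDIA4 and 138 RPKM of PDIA6, and still below the lowest DPPJ library.

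MANF and CRELD2 are small proteins of the ER lumen that can be secreted and are known targets of the UPR. MANF stood at 253, 186 and 173 RPKM in DPPJ and at 44.8, 43.9 and 47.2 RPKM in MHPJ, a log2 fold change of 1.98 ± 0.21. CRELD2 had the widest gap of the 10 genes, 161 ± 10.7 RPKM against 28.2 ± 9.39 RPKM, with a log2 fold change of 2.30 ± 0.29. In all, 9 of the 10 genes passed the threshold of the study (unadjusted P under 0.05 and a fold over 2) as higher in DPPJ, where 20.3% of the 14603 tested genes passed it and 7.6% passed it as higher. For all 10 genes every DPPJ library was above every MHPJ library, as for 29.4% of the genes tested. The median log2 fold change was 1.74 over the 10 genes and -0.07 over all genes. The 3 MHPJ libraries are also the ones with hardly any hormone transcripts, so breed and tissue content cannot be told apart here, nor can fewer hormone cells and less chaperone RNA per cell.

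**Figure D2:**
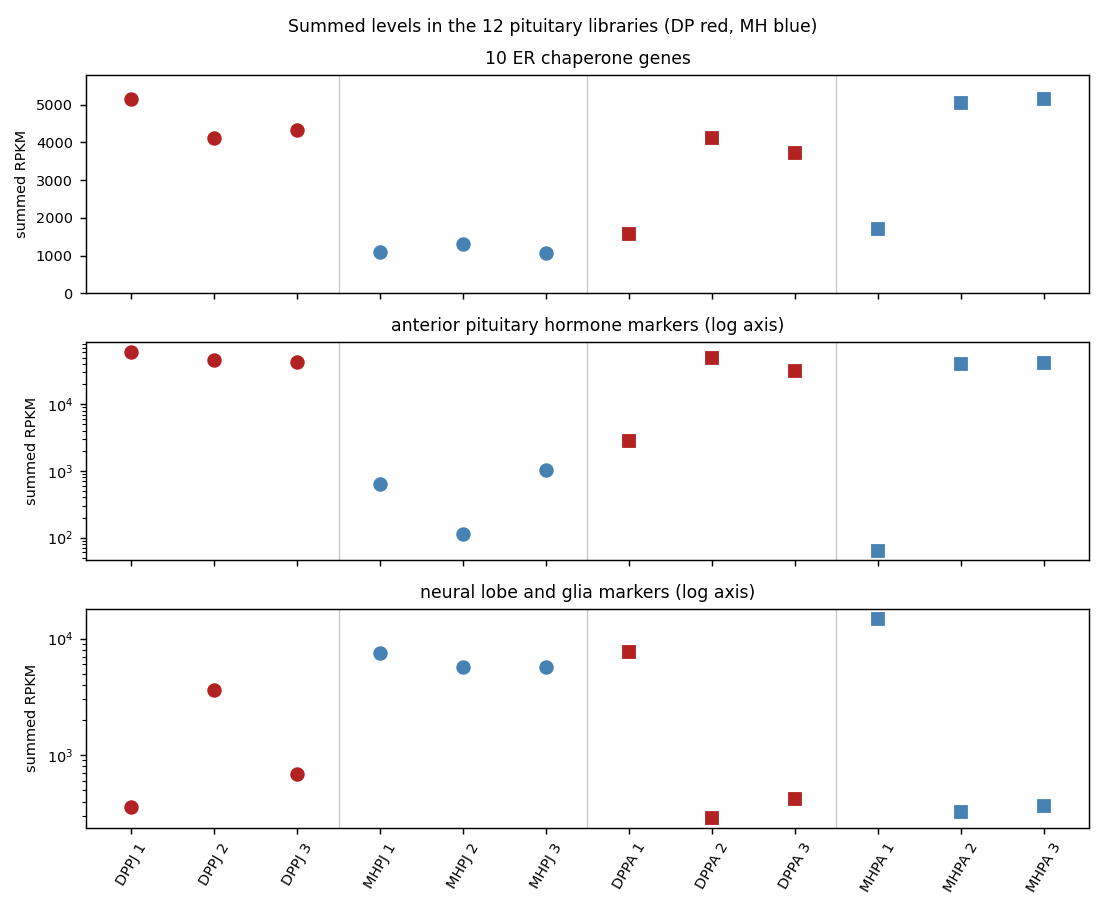
Summed RPKM of the 10 genes (top, linear axis), of 12 anterior pituitary hormone markers (middle, log axis) and of 11 neural lobe and glia markers (bottom, log axis) in each of the 12 pituitary libraries, DP red and MH blue, juvenile circles and adult squares. The 5 libraries with the lowest chaperone sums (1078 to 1696 RPKM) are the 5 with the lowest hormone sums (64.0 to 2772 RPKM).

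Summed over the 10 genes, the chaperones stood at 4521 ± 549 RPKM in DPPJ and 1162 ± 123 RPKM in MHPJ. In the adults the sums were 1558, 4118 and 3729 RPKM in DPPA and 1696, 5047 and 5143 RPKM in MHPA. The low adult library of each breed was the hormone-poor one. The part of the hormone cells in these sums was not tested. DPPJ replicate 2 carried 3634 RPKM of neural markers, the most among the 7 hormone-rich libraries, and had the lowest chaperone sum of its group, 4104 RPKM. The lowest chaperone sum of the 7 was that of DPPA replicate 3, 3729 RPKM, with 424 RPKM of neural markers.

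In the MH pituitary the 10 genes were lower in juveniles than in adults. HSPA5 stood at 142 ± 5.26 RPKM in MHPJ and at 253, 1122 and 1159 RPKM in MHPA, so that no libraries overlapped, and the log2 fold change (juvenile minus adult) was -2.30 ± 0.53. For CRELD2 it was -2.11 ± 0.61, for MANF -1.99 ± 0.51, for SDF2L1 -1.95 ± 0.47 and for HYOU1 -1.81 ± 0.53. The disulfide isomerases PDIA4 and PDIA6 had values of -1.66 ± 0.45 and -1.34 ± 0.49, HSP90B1 of -1.32 ± 0.36 and CALR of -1.12 ± 0.38. DNAJB11, at -0.84 ± 0.23, was again under a fold of 2.

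Of the 10 genes, 9 passed the threshold as lower in MHPJ, where 7.74% of the 14430 tested genes were called and 3.24% were called lower. For 8 of the 10 every MHPJ library was below every MHPA library, as for 12.8% of all genes, and the exceptions were PDIA6 and CRELD2. For both, the hormone-poor MHPA replicate 1 (113 and 38.2 RPKM) lay below MHPJ replicate 2 (138 and 39.0 RPKM). It lay above MHPJ replicates 1 and 3. Without MHPA replicate 1, all 10 genes were further apart, with a median log2 fold change of -2.10 in place of -1.74.

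In the DP pituitary the fitted levels of all 10 genes were higher in juveniles than in adults. HSPA5 stood at 622 to 839.9 RPKM in DPPJ and at 120, 501 and 466 RPKM in DPPA, without overlap, and the log2 fold change was 0.97 ± 0.49. SDF2L1 (1.23 ± 0.37) and CRELD2 (1.18 ± 0.36) were the 2 genes past the threshold, where 3.53% of 14533 genes were called and 0.943% were called higher. CRELD2 stood at 149 to 169.9 RPKM in DPPJ and at 30.0, 89.3 and 80.3 RPKM in DPPA. The libraries of 6 of the 10 genes (HSPA5, PDIA6, SDF2L1, MANF, CRELD2 and HYOU1) lay higher in DPPJ without overlap, as did 16.5% of all genes. For HYOU1 the gap was narrow, from 107.96 RPKM in DPPA replicate 2 to 108.34 RPKM in DPPJ replicate 2.

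HSP90B1 and CALR, the 2 most abundant chaperones, hardly differed between the DP stages, with log2 fold changes of 0.31 ± 0.37 and 0.17 ± 0.37. Leaving out the hormone-poor DPPA replicate 1 took SDF2L1 to 0.95 ± 0.28 and CRELD2 to 0.85 ± 0.15, so that 0 of the 10 genes passed the threshold in edgeR. It took HSPA5 to 0.56 ± 0.19 and CALR to -0.15 ± 0.19. Without DPPJ replicate 1, 1 gene passed, and without DPPA replicate 2, 3 did.

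In the adult pituitary the breeds differed by gene. SDF2L1 was at 2.96, 6.38 and 7.36 RPKM in DPPA and at 8.83, 25.9 and 31.6 RPKM in MHPA, so that every MHPA library was above every DPPA library, and its log2 fold change (DP minus MH) was -1.81 ± 0.49. It was the only 1 of the 10 genes past the threshold and the only 1 without overlap, where 2.93% of the 14376 tested genes were called, 1.18% were called lower and 10.8% lay lower without overlap. HSPA5 (-1.03 ± 0.67), CRELD2 (-0.95 ± 0.63) and MANF (-0.76 ± 0.55) had lower means in DPPA with a wide error. CALR (0.46 ± 0.46) and HSP90B1 (0.16 ± 0.44) were the 2 genes with a higher fitted level in DPPA.

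Each breed has 1 hormone-poor library at this stage, and both carry the replicate number 1. With the replicate number as a block, a second gene passed, so that 2 genes were called lower. Without both of these libraries, 3 genes passed the threshold as lower in DPPA, namely SDF2L1 (-1.88 ± 0.23), CRELD2 (-1.07 ± 0.16) and HSPA5 (-1.05 ± 0.18). MANF was then at -0.91 ± 0.19 and CALR at 0.48 ± 0.18. The errors of these 5 genes were 2 to 4 times smaller than with all libraries, and the fold changes kept their sign. Leaving out MHPA replicate 1 alone gave 4 genes past the threshold.

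**Figure D3:**
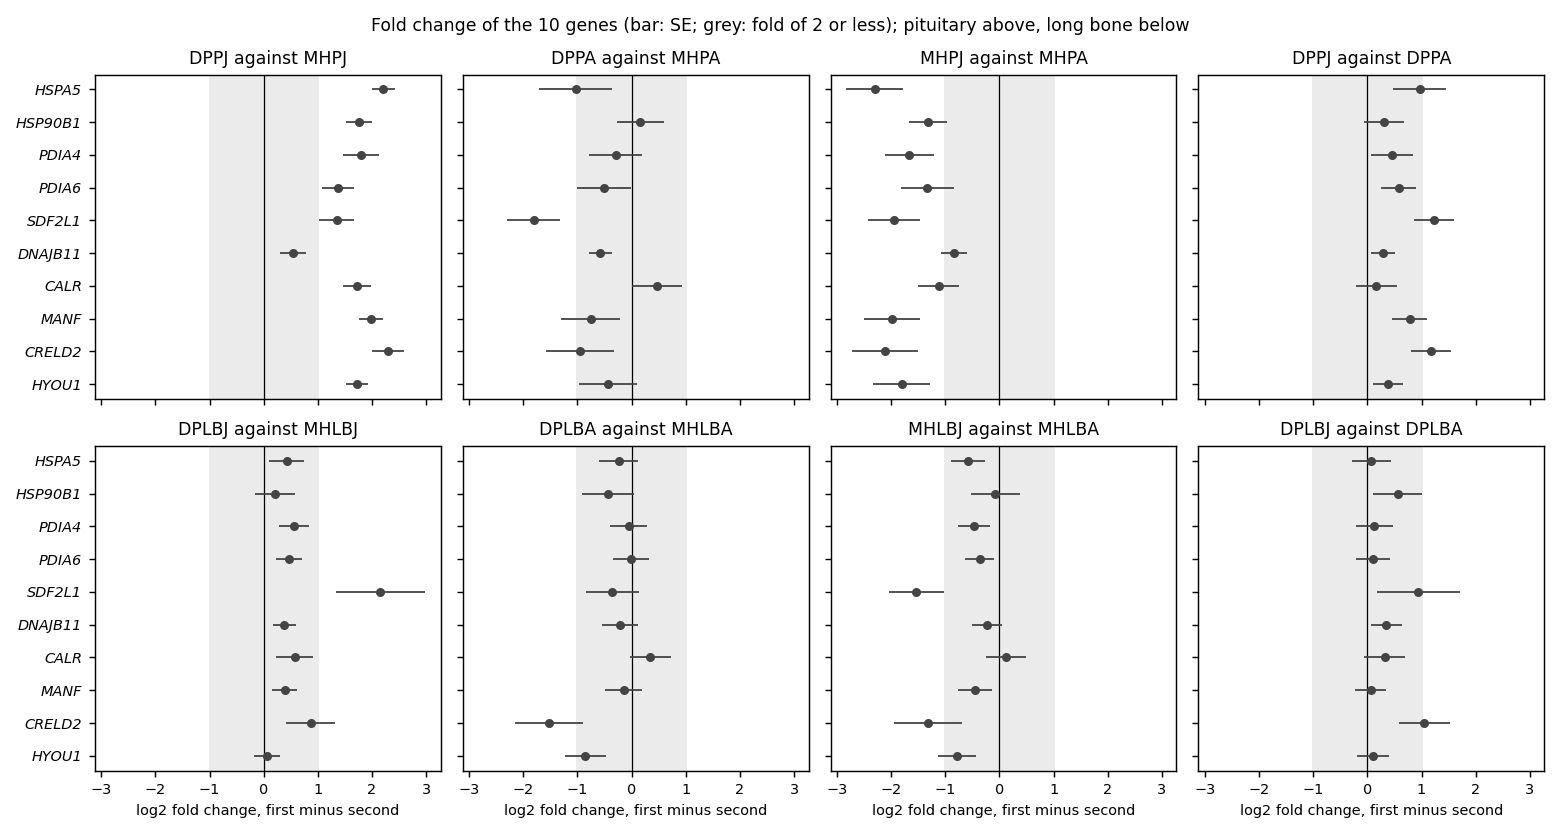
Log2 fold change (horizontal axis, first group minus second) of the 10 genes in the 4 pituitary comparisons (top) and the 4 long bone comparisons (bottom), from edgeR on the counts of 6 libraries. Points are fold changes, bars are SE and the grey band covers folds of 2 or less. All 10 points lie right of 0 in DPPJ against MHPJ and left of 0 in MHPJ against MHPA.

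The balance between the chaperones also shifted. The ratio of HSPA5 to HSP90B1, in RPKM, was 0.172, 0.283 and 0.300 in DPPA and 0.349, 0.674 and 0.697 in MHPA. These did not overlap, and the hormone-poor library was the lowest of each group. In the juveniles the order was the other way, with 0.378 to 0.452 in DPPJ and 0.270 to 0.341 in MHPJ. The ratio of CALR to HSPA5 ran from 1.99 to 3.13 in DPPA and from 0.685 to 1.20 in MHPA. In the long bone HSPA5 was at 0.144 to 0.399 of HSP90B1, and the 3 DPLBJ libraries (0.221 to 0.254) lay below the 3 DPLBA libraries (0.302 to 0.356).

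**Figure D4:**
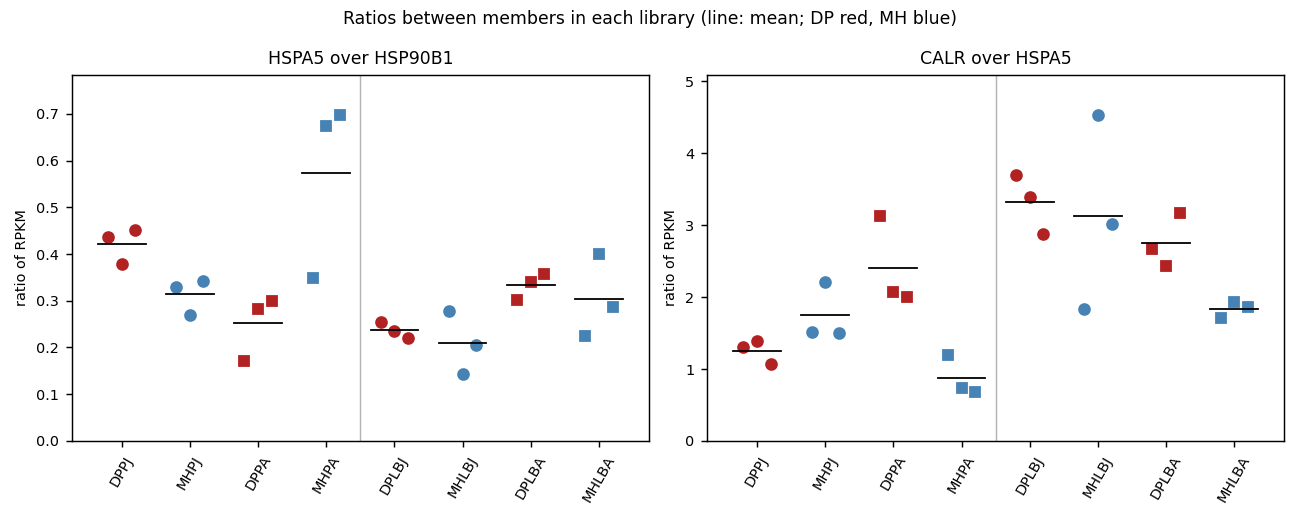
Ratio of HSPA5 to HSP90B1 (left) and of CALR to HSPA5 (right), in RPKM, in each library by group, with the line at the group mean. By group mean, MHPA has the highest HSPA5 to HSP90B1 ratio and the lowest CALR to HSPA5 ratio of the 8 groups. Its replicate 1, at 0.349 and 1.20, lies within the range of other groups.

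In the long bone HSPA5 and HSP90B1 lay close together between groups. Group means differed more for SDF2L1, from 3.33 RPKM in MHLBJ to 12.9 RPKM in DPLBJ. For CRELD2 they ran from 40.5 RPKM in DPLBA to 92.2 RPKM in MHLBA. HSPA5 was at 123, 213 and 215 RPKM in DPLBJ, at 181, 125 and 149.8 RPKM in MHLBJ, at 227, 147 and 168 RPKM in DPLBA and at 161, 272 and 156 RPKM in MHLBA. These 4 groups all overlapped, and so did the 4 groups of HSP90B1, whose means ran from 551 ± 174 RPKM in DPLBA to 787 ± 265 RPKM in DPLBJ. Their order by level is therefore not larger than the spread between horses. HYOU1 and MANF had lower means in every bone group than in either DP pituitary group, with bone means of 22.7 to 35.6 RPKM for HYOU1 and 78.9 to 97.0 RPKM for MANF.

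Between the juvenile breeds all 10 fitted fold changes were above 0, with a median of 0.45, but only SDF2L1 passed the threshold (2.15 ± 0.82), where 13.8% of 13755 genes did and 8.33% did so as higher. Its 3 DPLBJ libraries stood at 2.55, 26.8 and 9.34 RPKM and its MHLBJ libraries at 3.78, 3.86 and 2.35 RPKM, so the groups overlapped, as they did for all 10 genes against an overlap-free share of 23.5% over all genes. DPLBJ replicate 2, the library with 26.8 RPKM, was also the highest for CRELD2 in its group (131 RPKM against 39.0 and 70.1 RPKM). It held 1923 RPKM of 3 neutrophil granule genes and 788 RPKM of 7 red cell precursor genes, against at most 25.4 and 1.99 RPKM in MHLBJ. DPLBJ replicate 3, with SDF2L1 at 9.34 RPKM, held 411 and 932 RPKM of the same lists, and DPLBJ replicate 1, with SDF2L1 at 2.55 RPKM, held 2.42 and 0.54 RPKM. The part of those cells was not tested. Without DPLBJ replicate 2, SDF2L1 was at 0.87 ± 0.60, CRELD2 at 0.19 ± 0.25 in place of 0.87 ± 0.46, and 0 of the 10 genes passed in edgeR. Leaving out any 1 of the 3 MHLBJ libraries also left 0, and leaving out DPLBJ replicate 1 left 2. On log2(RPKM + 1), limma also called 0.

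In the adult bone, CRELD2 was the gene past the threshold, lower in DPLBA by -1.53 ± 0.62, where 18.3% of 14073 genes were called and 7.87% were called lower. It stood at 48.9, 37.0 and 35.5 RPKM in DPLBA and at 148, 89.3 and 39.3 RPKM in MHLBA. The highest value was that of MHLBA replicate 1, the library with pancreatic transcripts, and the next that of replicate 2, the library with liver transcripts. Without replicate 1 the fold change was -0.52 ± 0.38, and without both it was 0.24 ± 0.39. HYOU1 was the gene without overlap (15.4 to 26.9 RPKM in DPLBA against 28.3 to 40.3 RPKM in MHLBA, as 9.8% of all genes lay lower without overlap), with a log2 fold change of -0.85 ± 0.38, and -0.13 ± 0.42 without both libraries.

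With all libraries, 9 of the 10 genes had a lower fitted level in DPLBA, with a median of -0.23. Without MHLBA replicates 1 and 2, 9 of the 10 had a higher fitted level, with a median of 0.47, and 0 passed in edgeR. The 1 remaining MHLBA library is then assumed to vary like the DPLBA libraries. Leaving out any 1 DPLBA library or MHLBA replicate 1 left 0 genes past the threshold, and leaving out MHLBA replicate 3 left 2. On log2(RPKM + 1), limma called 0.

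Between the stages of the MH bone, SDF2L1 passed the threshold, with 2.35 to 3.86 RPKM in MHLBJ and 9.50, 8.21 and 5.56 RPKM in MHLBA and a log2 fold change of -1.54 ± 0.50, where 2.91% of 13899 genes were called and 2.14% were called lower. Its MHLBJ libraries all lay below its MHLBA libraries, as for 1.99% of all genes. It did not pass without MHLBA replicate 1 (-0.99 ± 0.41) or without MHLBJ replicate 3, and 3 genes passed without MHLBA replicate 3. The median over the 10 genes was -0.46 with all libraries and 0.19 without both MHLBA replicates 1 and 2. Between the stages of the DP bone, 0 of the 10 genes passed in edgeR, where 3.14% of 13866 genes did. DESeq2 called 1 of them, limma 0, and edgeR 2 without DPLBJ replicate 1. All 10 fitted fold changes were above 0, from 0.06 to 1.05, with CRELD2 the highest at 1.05 ± 0.47.

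The 10 genes moved together within the pituitary libraries. Over the 45 pairs of genes and 12 libraries, the median correlation of log2 CPM was 0.909, from 0.533 to 0.983, and in the 12 long bone libraries it was 0.613, from 0.150 to 0.925. Tissue content and depth differed between the libraries of a tissue, and all genes of a library share them, so the values are a description. The part of tissue content in these correlations was not tested. In the pituitary, MANF followed the mean of the 10 genes most closely (r of 0.993) and DNAJB11 least (0.831). The other genes with the most similar profile there were SSR1 (0.984), SNRPD3 (0.982), TBC1D8B (0.977), GGA2 (0.977) and SEC61B (0.976), of which SSR1 and SEC61B are parts of the channel that feeds proteins into the ER. In the long bone they were TFR2 (0.921), DAD1 (0.873), PHB (0.858), YARS (0.856) and PIP5K1B (0.851), DAD1 being a subunit of the enzyme that attaches sugar chains.

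The rest of the ER folding system was followed with 3 lists, 100 further folding enzymes, UPR sensors and factors, and genes of ER-associated degradation (ERAD). These lists, too, were chosen with earlier results of these data known. In the juvenile pituitary 27 of 96 tested genes were higher in DPPJ and 1 was lower, against 7.6% and 12.7% of all genes. Of the 96, 21 were called and also had an adjusted p under 0.05 (Benjamini-Hochberg, over all genes tested). Over all tested genes that share was 8.73%. Among the folding enzymes, 18 of 49 were higher, with PDIA3, the isomerase that partners calreticulin, at 1226, 1005 and 1037 RPKM in DPPJ and 181, 199.6 and 152 RPKM in MHPJ. Its log2 fold change was 2.42 ± 0.23 with an adjusted p of 0.00996. PPIB, a prolyl isomerase, was higher by 1.87 ± 0.37 (adjusted p = 0.0340), ERP29 by 1.38 ± 0.16 (adjusted p = 0.0137) and P4HB (PDI) by 1.50 ± 0.48 (adjusted p = 0.0949). Calnexin (CANX), the membrane-bound relative of CALR, did not pass, at 0.46 ± 0.18.

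Among 22 UPR sensors and factors, 4 were higher and 1 lower in DPPJ. XBP1 was at 165, 128 and 143 RPKM in DPPJ and 25.4, 33.4 and 24.4 RPKM in MHPJ, a log2 fold change of 2.19 ± 0.23 (adjusted p = 0.0116). DDIT3 (CHOP), a factor of the PERK arm tied to cell death, was higher by 1.13 ± 0.30, and PPP1R15A (GADD34), which restarts translation, by 1.05 ± 0.35, with adjusted p of 0.0619 and 0.104. ATF4, the main factor of that arm, did not pass, at 0.42 ± 0.25. WFS1, a calcium-handling ER membrane protein, was the gene lower in DPPJ (-2.55 ± 0.64, adjusted p = 0.0563), and it was highest in MHPJ replicate 3 with 57.8 RPKM. Of 25 ERAD genes 5 were higher, among them ERLEC1 (1.37 ± 0.22) and DERL2 (1.08 ± 0.20).

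The neighbouring steps of secretion were higher as well. Of 32 genes of translocation and N-glycosylation, 15 were higher and 0 lower in DPPJ, such as SEC11C of the signal peptidase (802 ± 104 RPKM against 175 ± 13.2 RPKM) and RPN2 of the oligosaccharyltransferase (1.53 ± 0.27). Of 34 genes of ER to Golgi transport 11 were higher, with the vesicle coat gene SEC24D at 2.64 ± 0.31. The heat shock chaperones of the cytosol did not follow. Of 23 tested, 0 were higher in edgeR and 2 were lower, CRYAB (-2.78 ± 0.96) and DNAJB1 (-1.15 ± 0.23), while HSPA8 (0.01 ± 0.45) and HSP90AA1 (-0.26 ± 0.37) did not pass. None of 10 mitochondrial chaperones passed in edgeR. As for the 10 genes, the hormone markers moved with these lists, 11 of 12 being higher in DPPJ, and their part was not tested.

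**Figure D5:**
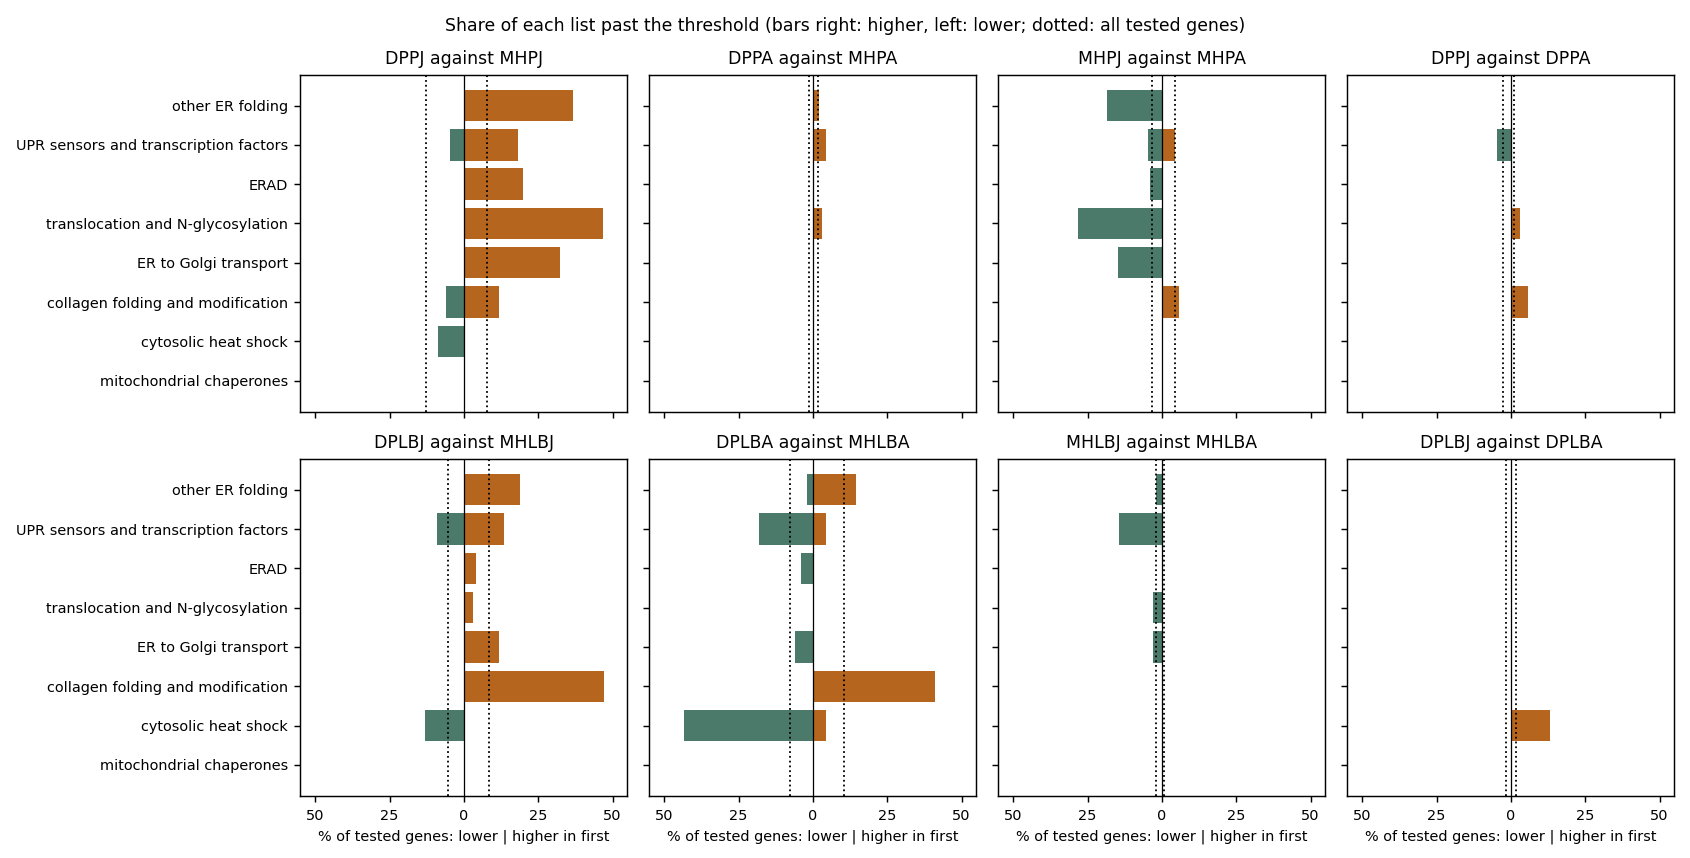
Share of the tested genes of 8 lists past the threshold in each comparison, higher in the first group to the right and lower to the left, with the share over all tested genes as dotted lines. Pituitary comparisons are on top and long bone comparisons below. Translocation and N-glycosylation has the longest bar in DPPJ against MHPJ, where 15 of 32 genes were higher, and the cytosolic heat shock list the longest in DPLBA against MHLBA, where 10 of 23 were lower.

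Between the MH pituitary stages, 11 of 96 ER pathway genes were lower and 1 higher in MHPJ, against 3.24% and 4.5% of all genes, and 0 had an adjusted p under 0.05. XBP1 (-2.09 ± 0.48), PDIA3 (-1.69 ± 0.46), TXNDC5 (-1.58 ± 0.47) and DNAJC3 (-1.50 ± 0.32), a co-chaperone of HSPA5, were lower in MHPJ, with adjusted p from 0.346 to 0.378. The count moved with single libraries of both stages. Dropping MHPA replicate 1 gave 25 genes and dropping MHPJ replicate 2 gave 23, while dropping MHPJ replicate 1 gave 7 and dropping either of the other 2 MHPA libraries gave 6. In the DP pituitary only WFS1 passed, lower in DPPJ by -1.62 ± 0.53 (adjusted p = 0.424), against 2.59% of all genes called lower, and it was 29.6 RPKM in the hormone-poor DPPA replicate 1 against 8.69 and 10.9 RPKM in the others, with 0 of 96 genes called without that library. Without DPPJ replicate 3 the count was also 0, and without DPPA replicate 2 it was 3.

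In the adult pituitary, 2 of 96 passed, both higher in DPPA, against 1.75% of all genes higher. CLGN (calmegin), a relative of calnexin, was at 25.7, 30.6 and 35.6 RPKM in DPPA and 5.31, 12.7 and 12.3 RPKM in MHPA (1.78 ± 0.28, adjusted p = 0.360), and CHAC1, a target of the PERK arm, was higher by 1.61 ± 0.44 (adjusted p = 0.503). The count was 6 without DPPA replicate 1, 4 without DPPA replicate 3 or MHPA replicate 3, and 3 with the replicate block. PDIA3 (0.26 ± 0.57) and XBP1 (-0.14 ± 0.63) did not pass. The test of the difference between the juvenile and adult breed effects called 27 of 96 ER pathway genes, 26 of them with the DP minus MH effect more positive in juveniles, where 15.7% of all genes were called and 6.8% in that direction. The count was 42 without TMM normalization and ran from 13 to 38 with 1 library left out, at 13 to 17 without DPPJ replicates 1 or 3, MHPJ replicates 1 or 3, DPPA replicate 1, or MHPA replicates 2 or 3. PDIA3 (2.20 ± 0.65) and XBP1 (2.36 ± 0.73) were among the genes called, and 0 had an adjusted p under 0.05, the lowest being 0.147. The lists were chosen with earlier results of these data known, so the count is a description. All MHPJ libraries are hormone-poor and the adult groups are mixed, so breed, stage and tissue content cannot be told apart in it.

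In the juvenile bone, 13 of 95 ER pathway genes were higher and 2 lower in DPLBJ, against 8.33% and 5.47% of all genes, and without TMM normalization the split was 8 and 4. RCN3 (2.10 ± 0.42) and RCN1 (1.60 ± 0.35), calcium-binding proteins of the secretory pathway, TXNDC5 (1.73 ± 0.47) and the peroxidase PRDX4 (1.10 ± 0.28) were higher, with adjusted p from 0.136 to 0.157. ATF4 stood at 164, 235 and 212 RPKM in DPLBJ against 126, 63.3 and 56.8 RPKM in MHLBJ (1.46 ± 0.38, adjusted p = 0.153), and ATF3, a stress factor downstream of it, was lower by -1.86 ± 0.46 (adjusted p = 0.150). The collagen list moved more than the ER lists, with 8 of 17 genes higher and 0 lower. FKBP10 (2.11 ± 0.53) and SERPINH1 (HSP47), the collagen chaperone (1.34 ± 0.43), were among them. The cartilage markers moved with the breed, 10 of 10 tested being higher in DPLBJ (44.0 to 7746 RPKM in sum against 10.4 to 33.2 RPKM), and the fat markers were lower, 6 of 6 tested. Osteoblast markers were higher in 4 of 9 (7097 to 28339 RPKM in sum against 5486 to 18991 RPKM), red cell precursor markers in 5 of 5 and neutrophil markers in 3 of 3, while 5 of 6 muscle markers were lower. Their part was not tested.

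In the adult bone, 8 of 95 were higher and 6 lower in DPLBA, against 10.4% and 7.87% of all genes. RCN3 (2.10 ± 0.59), PPIC (1.67 ± 0.44) and TXNDC5 (1.23 ± 0.36) were higher, with adjusted p from 0.0851 to 0.0997, and ATF3 was lower by -2.01 ± 0.46 (adjusted p = 0.0645). EIF2AK3 (PERK) was at 18.3, 15.7 and 17.0 RPKM in DPLBA and at 335, 21.3 and 22.4 RPKM in MHLBA, with a log2 fold change of -3.48 ± 1.27, so that MHLBA replicate 1 was the only library far from the others. The count was 8 in all without DPLBA replicate 2 and 7 without DPLBA replicate 3. Without MHLBA replicate 1 it was 8 higher and 1 lower, and without replicates 1 and 2 it was 17 and 2. Collagen genes were higher (7 of 17, FKBP10 2.53 ± 0.71). Of 23 cytosolic heat shock genes 10 were lower and 1 higher, and HSP90AA1 (-2.43 ± 0.72) and HSPA8 (-1.60 ± 0.57) were among the lower ones. Of the called heat shock genes, 0 had an adjusted p under 0.05. Without overlap, 7 of the 23 lay lower, against 9.8% of all genes, and 2 lay higher. Counts of these 2 lists without MHLBA replicates 1 and 2 are not given here. Plasma and B cell markers were higher in DPLBA, 7 of 11 tested (70.4 to 204 RPKM in sum against 15.2 to 31.0 RPKM), and so were 5 of 9 osteoblast markers (21644 to 22663 RPKM in sum against 2967 to 13937 RPKM), 3 of 3 neutrophil markers (256 to 427 RPKM against 0.23 to 12.6 RPKM) and 3 of 11 cartilage markers. Lower were 7 of 8 liver markers and 3 of 4 muscle markers. Their part was not tested.

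Between the MH bone stages 4 of 95 passed, all lower in MHLBJ, against 2.14% of all genes. They were EIF2AK3, ERO1LB, ASNS and XBP1, and all had their highest bone level in MHLBA replicate 1 (335, 69.5, 70.1 and 262 RPKM). Without that library 0 passed in edgeR, and 0 also passed without any 1 of the MHLBJ libraries, while 12 and 15 passed without MHLBA replicates 2 and 3. Between the DP bone stages 0 of 95 passed in edgeR, 0 had an unadjusted P under 0.05, and DESeq2 and limma called 0 as well. In edgeR, dropping DPLBJ replicate 1 gave 4 genes, dropping DPLBJ replicate 2 gave 3 and dropping DPLBA replicate 1 gave 1. Red cell precursor markers were higher in DPLBJ than in DPLBA, 6 of 7 tested, against 1.58% of all genes called higher. Their part was not tested. The test of the difference between juvenile and adult breed effects in the bone called 5 of 97 genes, all with a more positive DP minus MH effect in juveniles, against 4.17% of all genes called and 2.54% in that direction. It called 0, 12 and 16 without MHLBA replicates 1, 2 and 3, 9 without DPLBJ replicate 2, and 3 without DPLBA replicate 3 or any 1 MHLBJ library.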

How the data were processed

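RNA-seq of 24 horse libraries was used. The authors deposited raw read counts per gene without normalization, and deposited RPKM values scaled by gene length and library size. Reads were trimmed with Btrim and mapped to EquCab 3.0. The submitters' processing notes name bcl2fastq, TopHat2 and edgeR, the study's methods also name Salmon, and the tool that made the counts is not given in the sources used here. The counts and RPKM of DPLBA replicate 2 differed by over 2% for 294 of 10842 well-covered genes, with 0 of the 10 genes among them.

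Counts were fitted with edgeR 4.0.16 (R 4.3.3) quasi-likelihood tests, TMM and filterByExpr (minimum count 10), on the 6 libraries of each comparison and over all genes, with Benjamini-Hochberg adjustment. The scripts were tested on simulated data. DESeq2 1.42.0, limma 3.58.1 on log2(RPKM + 1) and log2(RPKM + 0.1), other scalings, no filter, a replicate block and each library left out were alternatives. With 3 against 3 libraries, p-values set the group difference against a spread estimated from these samples only.

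The 10 genes and all lists were chosen with earlier results of these data known. Other genes named are, per list and comparison, up to 4 past the threshold and up to 2 not past it with the highest mean CPM. In DPPA and MHPA same-numbered libraries deviated together (correlations 0.642, 0.531 and 0.350), so the block counts there as a pairing that comes from the data, not from the labels. The 8077 genes without a symbol stayed in the fits.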

Additional observations from a re-analysis of the deposited data

Results flagged for a closer look

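In 4 of the 10 genes the libraries of the juvenile and adult pituitary were fully apart in both breeds and in opposite directions, juvenile above adult in DPs and below it in MHs. Over all genes, 16.5% lay higher without overlap in DPPJ against DPPA and 12.8% lower in MHPJ against MHPA. The share of all genes with both was not computed. The log2 fold changes (juvenile minus adult) were 0.97 in DPs and -2.30 in MHs for HSPA5, 1.23 and -1.95 for SDF2L1, 0.78 and -1.99 for MANF, and 0.38 and -1.81 for HYOU1. For HYOU1 the DP stages were barely apart, with the lowest DPPJ library at 108.34 RPKM and the highest DPPA library at 107.96 RPKM. SDF2L1 was also fully apart in both breed comparisons of the pituitary, with a log2 fold change (DP minus MH) of 1.35 in juveniles and -1.81 in adults. Of all genes, 29.4% lay higher without overlap in DPPJ against MHPJ and 10.8% lower in DPPA against MHPA. These differences between effects were not tested, since the genes were chosen with results of these libraries known. The MHPJ libraries and 1 library each of DPPA and MHPA hold few hormone transcripts, whose part was not tested. Groups of 3 are too small for a test of single outlying libraries.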

How the results depend on the processing

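The ER pathway count of DPPJ against MHPJ (28) stayed within 1.5 times under all alternatives run (23 to 39 with 1 library left out). Requiring an adjusted p under 0.05 gave 0 in DPPA against MHPA, DPLBJ against MHLBJ, DPLBA against MHLBA, MHPJ against MHPA, DPPJ against DPPA, MHLBJ against MHLBA and both tests of the difference between breed effects, with 12, 25, 16, 24, 9 and 5 genes at an unadjusted P under 0.05 in these 6 comparisons. On log2(RPKM + 1) limma gave 1 in DPPA against MHPA, 9 in DPLBJ against MHLBJ and 0 in MHLBJ against MHLBA, and on log2(RPKM + 0.1) it gave 9 and 0 in the last 2. Without the filter MHLBJ against MHLBA gave 11, and without TMM the pituitary difference test gave 42. With the replicate block, MHLBJ against MHLBA and the bone difference test gave 0, and the block moved no other pathway count by over 1.5 times. Outside DPPA and MHPA same-numbered libraries share only a number (correlations -0.511 to 0.181).

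With 1 library left out the counts ran from 2 to 6 in DPPA against MHPA, 11 to 17 in DPLBJ against MHLBJ, 7 to 20 in DPLBA against MHLBA, 6 to 25 in MHPJ against MHPA, 0 to 3 in DPPJ against DPPA, 0 to 15 in MHLBJ against MHLBA, 0 to 4 in DPLBJ against DPLBA, 13 to 38 in the pituitary difference test and 0 to 16 in that of the bone. Counts moved by over 1.5 times in DPPA against MHPA without DPPA replicate 1 (6), DPPA replicate 3 (4) or MHPA replicate 3 (4), and in DPLBA against MHLBA without DPLBA replicate 2 (8), DPLBA replicate 3 (7) or MHLBA replicate 1 (9). They moved in MHPJ against MHPA without MHPJ replicate 1 (7), MHPJ replicate 2 (23), MHPA replicate 1 (25) or MHPA replicates 2 or 3 (6 each), and in DPPJ against DPPA without DPPJ replicate 3 (0), DPPA replicate 1 (0) or DPPA replicate 2 (3). In MHLBJ against MHLBA they moved without any MHLBJ library (0 each), MHLBA replicate 1 (0), replicate 2 (12) or replicate 3 (15), and in DPLBJ against DPLBA without DPLBJ replicate 1 (4), DPLBJ replicate 2 (3) or DPLBA replicate 1 (1). The pituitary difference test gave 13 to 17 without DPPJ replicates 1 or 3, MHPJ replicates 1 or 3, DPPA replicate 1, or MHPA replicates 2 or 3. That of the bone gave 0, 12 and 16 without MHLBA replicates 1, 2 and 3, 9 without DPLBJ replicate 2, and 3 without DPLBA replicate 3 or any MHLBJ library. Without the filter DPLBA against MHLBA had 9 higher and 10 lower, with the block 11 and 2, and with limma 9 and 1 or 10 and 2.

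Of 910 alternative fold changes of the 10 genes, 855 stayed within 1 SD of the libraries and 67 changed sign, 0 of them in DPPJ against MHPJ and MHPJ against MHPA. The value of a called gene that turned was CRELD2 in DPLBA against MHLBA, which ran from -1.94 without MHLBA replicate 3 to 0.24 without both MHLBA replicates 1 and 2, an alternative chosen after seeing the data. Without TMM the median of all genes moved by up to 0.29 on the log2 scale. The cause of these changes was not tested.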
